A study of Homo sapiens with 4 samples.

Results

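The 10 genes described here handle iron or bear on ferroptosis, and they were chosen by symbol, with earlier results of these data known. They are TFRC, SLC11A2, FTH1, FTL, NCOA4, ACO1, IREB2, FBXL5, SLC7A11 and GPX4, and each has 1 row among the 26364 genes listed in every sample. Their mRNA was measured by RNA-seq in BE(2)C, a human neuroblastoma line with amplified MYCN that was cloned from the line SK-N-BE(2). Control cells (Ctrl, 2 samples) received a non-targeting siRNA and knockdown cells (MYCN KD, 2 samples) received 1 siRNA against MYCN. By the sample labels, both conditions had 80 nM siRNA, given for 6 h with a cationic lipid reagent, and RNA was taken on the following day, while the methods of the study give another siRNA concentration. The labels number the samples of a condition and do not say that they were separate cultures, so the p-values below measure only the spread between these samples.

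Iron enters most cells bound to transferrin, through the transferrin receptor encoded by TFRC, and what is not used at once is stored in shells of ferritin built from FTH1 and FTL chains. Cells set both by a shared switch: when iron is scarce, the iron regulatory proteins encoded by ACO1 and IREB2 bind a hairpin in the mRNA, the iron-responsive element, which protects TFRC mRNA from decay and blocks translation of the ferritin mRNAs. Ferroptosis is a form of cell death in which free iron drives the oxidation of membrane lipids, and GPX4, supplied with glutathione through the cystine importer SLC7A11, reverses that oxidation.

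The values are RPKM, that is, reads scaled to gene length and to the total of the sample, made by the authors from normalized counts. The whole counts behind the values, recovered from the RPKM steps and called reads below, came to between 29055819 and 34142988 per sample. Since the authors normalized their counts, these may be adjusted counts and not the reads as sequenced. Differences are log2 fold changes of RPKM + 1, MYCN KD minus Ctrl, a scale that understates the change of low genes. They were tested with limma over the 11411 genes whose mean RPKM reached 1, and adjusted p-values are by the Benjamini-Hochberg method with a threshold of 0.05. MYCN itself stood at 1068 and 1073 RPKM in the Ctrl samples, against 720.2 and 718.0 RPKM after knockdown (log2 fold change -0.57, SE 0.029, adjusted p = 0.00361), a ratio of 0.672. The cells kept the markers of a neuroblast, since all 7 listed ones were above 0, with a summed level of 1181 to 1282 RPKM in the Ctrl samples and of 1926 to 2100 RPKM after knockdown. The 7 markers of other cell types summed to 0.892 to 0.926 RPKM in Ctrl and 2.19 to 2.24 RPKM in MYCN KD, with HBB at 0 in every sample and COL1A1 the highest at 0.733 RPKM on average in Ctrl and 1.76 RPKM in MYCN KD. The part of either marker list in the results below was not tested. Samples with the same replicate number deviated from the means of their conditions in opposite directions, with a correlation of -0.9845 across the tested genes. A gene whose Ctrl samples lay far apart therefore tended to have MYCN KD samples far apart too. The spread of 1 condition thus largely repeats that of the other, while limma counted 2 residual degrees of freedom. All adjusted p-values below, and the shares of genes called, may therefore be too favorable.

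Of the 10 genes, 9 passed the filter on low values and SLC7A11 did not. FTH1 and FBXL5 rose, TFRC fell, and the other 6 did not pass the threshold. In all tested genes, 25.3% were called higher and 22.8% lower, 48.1% in either direction, so 3 called genes among 9 is no larger a share than in the background. The median log2 fold change of the 9 genes was 0.12, beside 0.03 for all tested genes. With 2 samples against 2, an exact two-sided permutation test of a single gene cannot go below p = 0.3333, which TFRC, FTH1, FBXL5, NCOA4 and SLC7A11 reached.

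**Figure D1:**
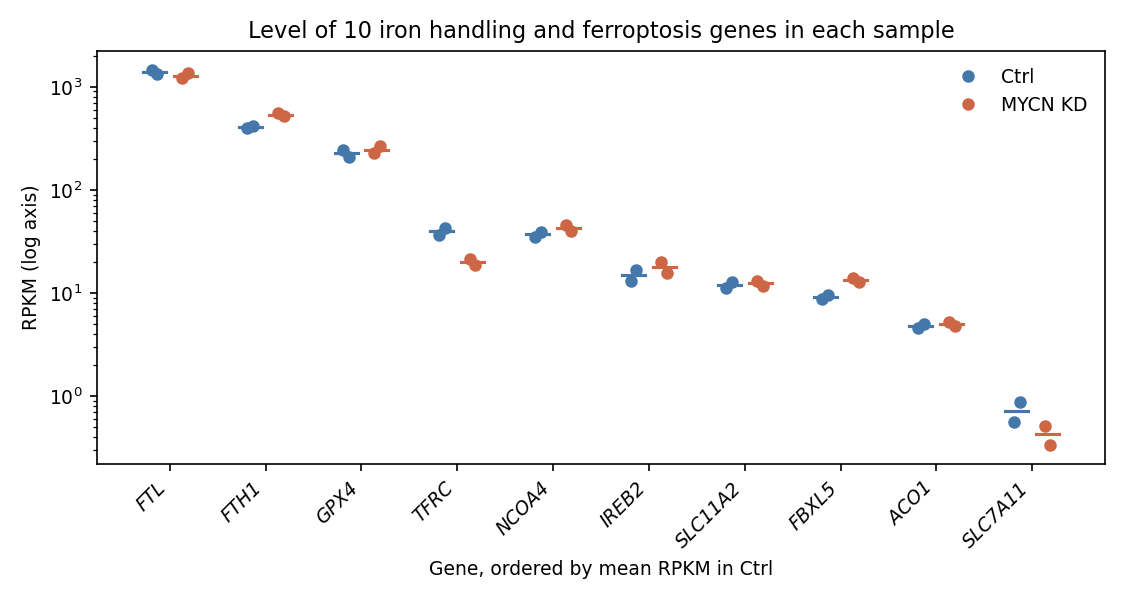
RPKM of the 10 genes on a log axis, ordered by their mean in Ctrl. Points are single samples and lines are the means of 2 samples. FTL is highest in every sample, SLC7A11 lies below 1 RPKM in every sample, and TFRC, FTH1 and FBXL5 stand apart between the conditions.

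Matches to the element by which the iron regulatory proteins act are shown first. The motif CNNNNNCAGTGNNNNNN, 17 bases in which the 5 bases before and the 5 after the loop CAGTGN can pair (G-U pairs allowed), was searched on the mRNA strand of the untranslated regions of the canonical transcripts (GENCODE 44 lifted to GRCh37). FTH1 and FTL had 1 match each in the 5′ UTR, and TFRC had 4 in the 3′ UTR. They are printed 5′ to 3′ with the loop in capitals, to show how alike the ferritin elements are and how often TFRC repeats its own.
FTH1, 5′ UTR, chr11:61735046-61735074, minus strand: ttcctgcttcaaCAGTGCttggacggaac
FTL, 5′ UTR, chr19:49468592-49468620, plus strand: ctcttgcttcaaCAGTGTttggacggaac
TFRC, 3′ UTR, chr3:195777850-195777878, minus strand: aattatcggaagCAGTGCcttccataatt
TFRC, 3′ UTR, chr3:195777446-195777474, minus strand: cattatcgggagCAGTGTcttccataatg
TFRC, 3′ UTR, chr3:195777381-195777409, minus strand: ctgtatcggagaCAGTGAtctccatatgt
TFRC, 3′ UTR, chr3:195777334-195777362, minus strand: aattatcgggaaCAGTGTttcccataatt

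The ferritin matches began 39 bases (FTH1) and 33 bases (FTL) into 5′ UTRs of 209 and 199 bases, close to the cap. Those of TFRC began at bases 941, 1345, 1410 and 1457 of a 3′ UTR of 2658 bases. Such matches are rare: 18 of 19080 genes (0.0943%) had one in the 5′ UTR and 121 of 19085 (0.634%) in the 3′ UTR. Among 5′ UTRs within 20% of the same length, the share was 0.0987% for FTH1 and 0.0993% for FTL, and for the 3′ UTR of TFRC it was 0.745%. Of the 121 genes with a 3′ UTR match, 117 had 1 match, 3 had 2, and TFRC was the gene with 4. No match to these letters was found in the UTRs of SLC11A2, IREB2, ACO1, FBXL5, NCOA4, GPX4 or SLC7A11 in these transcripts. The search allowed no mismatch among the 5 pairs, so a gene without a match may still hold an element. A match is a description of sequence and was not measured as a bound element.

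**Figure D2:**
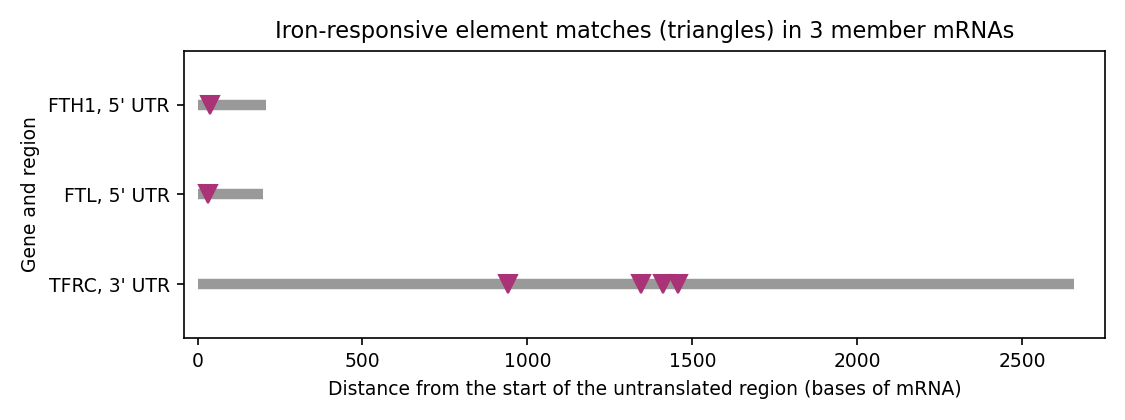
Position of the matches to the iron-responsive element (triangles, first base of the 17-base motif) along the untranslated regions (gray bars), in bases of mRNA from the start of each region. FTH1 and FTL hold 1 match near the start of the 5′ UTR, and TFRC holds 4 between bases 941 and 1457 of the 3′ UTR.

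TFRC, which encodes the receptor that takes up transferrin-bound iron, lies at chr3:195739382-195809024 on the minus strand of GRCh37. The Ctrl samples had 36.8 and 42.7 RPKM, against 21.4 and 18.6 RPKM after knockdown. Both knockdown values were below both Ctrl values, and the mean fell from 39.8 ± 4.15 to 19.97 ± 1.98 RPKM (SD, n = 2 each), a ratio of 0.502. The log2 fold change of TFRC was -0.96 (SE 0.11, adjusted p = 0.00976 by limma), and 188 of the tested genes had a larger fall. Over 13 alternative settings it lay between -1.06 and -0.86, with no adjusted p above 0.0179. Where 1 sample was left out, here and below, the lone sample of its condition was assumed to vary like the other condition, and 1 residual degree of freedom remained. Adjusted p-values and calls of such fits lean on the spread of other genes and cannot be compared with those of the main fit. The values rest on 3042 to 7231 reads per sample. In bulk RNA, fewer cells with a transcript and less RNA per cell cannot be told apart. Of the 9 genes, TFRC was the one whose MYCN KD values were all below Ctrl, a pattern that 35.8% of all tested genes had.

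SLC11A2 encodes DMT1, the transporter that passes ferrous iron from the endosome to the cytosol (chr12:51373184-51422349, minus strand). The levels of 11.2 and 12.7 RPKM in Ctrl overlapped with those of 13.2 and 11.7 RPKM after knockdown. Its log2 fold change was 0.05 (SE 0.098, adjusted p = 0.687), and it turned negative, to -0.04 without Ctrl replicate 1 and to -0.03 without MYCN KD replicate 1. The mRNA of the receptor thus fell, while any difference in the mRNA of the transporter was within the spread between samples.

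FTH1 encodes the ferritin heavy chain, which oxidizes iron as it enters the shell (chr11:61727190-61735106, minus strand). It stood at 394.0 and 418.8 RPKM in the Ctrl samples, against 552.1 and 520.5 RPKM after knockdown. The knockdown values were both above the Ctrl values, and the mean rose from 406.4 ± 17.6 to 536.3 ± 22.4 RPKM (SD, n = 2 each), a ratio of 1.32. FTH1 thus rose by a log2 fold change of 0.40 (SE 0.054, adjusted p = 0.0129), a rise that 1951 tested genes exceeded. FTH1 ranked 105th by level among the 11411 tested genes, on at least 16459 reads in each sample.

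FTL encodes the light chain, which helps the iron core to form (chr19:49468566-49470136, plus strand). It was the most abundant of the 10 genes and ranked 27th among tested genes, with 1469 and 1326 RPKM in Ctrl, against 1219 and 1347 RPKM after knockdown. The conditions overlapped, with means of 1397 ± 101 and 1283 ± 90.5 RPKM. The change of -0.12 on the log2 scale (SE 0.083, adjusted p = 0.290) did not pass the threshold. It ranged from -0.20 to -0.05 with 1 sample left out, and its sign depended on the scaling, as quantile normalization gave 0.105 (adjusted p = 0.0807).

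Within a sample, the ratio of FTH1 to FTL does not depend on the total by which the sample is divided. It was 0.268 and 0.316 in Ctrl, against 0.453 and 0.386 after knockdown, so both MYCN KD samples had more heavy chain mRNA per light chain mRNA than either Ctrl sample. The difference was 0.52 on the log2 scale, and lay between 0.41 and 0.64 when each sample was left out in turn. The ratio of TFRC to the sum of FTH1 and FTL, that is, of uptake to storage mRNA, was 0.0198 and 0.0245 in Ctrl, against 0.0121 and 0.00994 after knockdown. Both knockdown values again lay outside the Ctrl range, with a log2 difference of -1.01. These ratios were not tested, and most of the second one follows the fall of TFRC. Processed pseudogenes resemble both ferritin genes, so some of their reads may be shared. The ferritin-like rows held few reads, with 3 to 7 reads per sample in FTH1P3 and 0 in FTLP10, FTH1P18, FTHL17 and the mitochondrial ferritin FTMT. How reads that map to several places were counted is not given, so these rows cannot show whether reads were shared or lost.

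**Figure D3:**
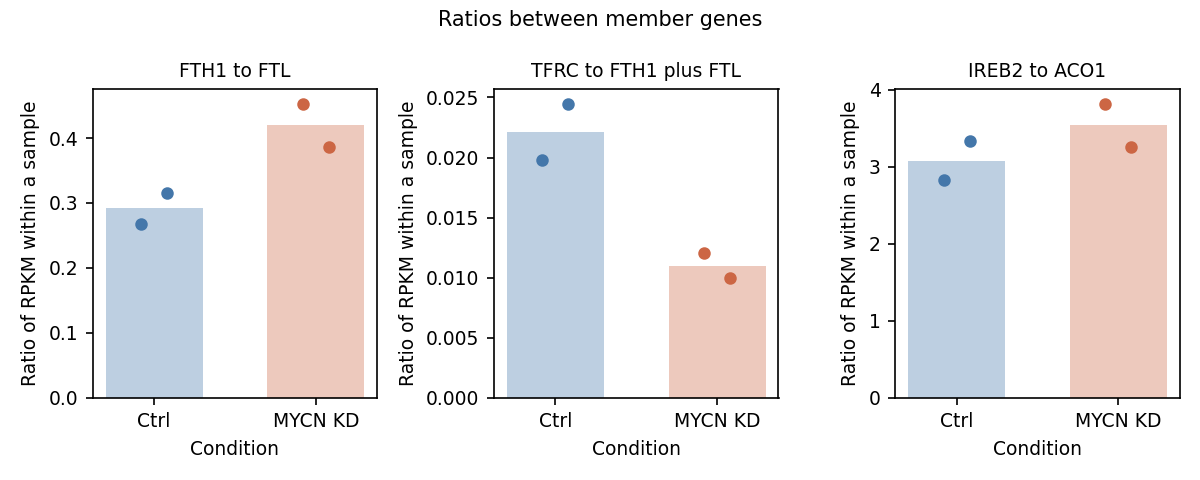
Ratios of RPKM within a sample, from 0 on each axis. Points are single samples and bars are means of 2 samples. FTH1 to FTL is higher in both MYCN KD samples, TFRC to ferritin is lower in both, and IREB2 to ACO1 overlaps between the conditions.

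NCOA4 encodes the receptor that carries ferritin into the autophagosome, from which its iron is freed (chr10:51565199-51590734, plus strand). The Ctrl samples had 34.8 and 39.5 RPKM and the MYCN KD samples 45.3 and 40.1 RPKM. The groups did not overlap, but were apart by as little as 40.1 against 39.5 RPKM. The change of 0.20 on the log2 scale (SE 0.098) had an adjusted p of 0.182, which did not pass. The change ranged from 0.11 to 0.29 with 1 sample left out. Over the alternatives that kept every sample and the labelled replicate numbers, its adjusted p lay between 0.109 and 0.304. Counting NCOA4 with FTH1 and FBXL5, 3 of the 9 genes had both MYCN KD values above both Ctrl values, beside 40.4% of all tested genes. With TFRC, 4 of the 9 genes did not overlap between the conditions, beside 76.2% of all tested genes.

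The sensors of the switch were IREB2, ACO1 and FBXL5. IREB2 encodes IRP2, which is removed by degradation when iron is plentiful (chr15:78729773-78793795, plus strand). The Ctrl values of 13.0 and 16.7 RPKM overlapped with the knockdown values of 19.9 and 15.6 RPKM. The mean was 14.9 ± 2.62 in Ctrl and 17.8 ± 3.03 in MYCN KD (SD, n = 2 each), and the log2 fold change of 0.24 (SE 0.18, adjusted p = 0.330) did not pass. The change depended on single samples: it was 0.41 without replicate 2 of either condition, but 0.08 without replicate 1 of either condition.

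ACO1 encodes IRP1, which carries an iron-sulfur cluster as the cytosolic aconitase and binds RNA once that cluster is lost (chr9:32384601-32454767, plus strand). The Ctrl samples had 4.60 and 5.01 RPKM and the MYCN KD samples 5.22 and 4.80 RPKM, so that the groups overlapped. The log2 fold change of ACO1 was 0.05 (SE 0.066, adjusted p = 0.566), near 0 under quantile normalization (-0.01). In each sample IREB2 mRNA was more abundant per length than ACO1 mRNA, by 2.83 and 3.34 times in Ctrl and, after knockdown, by 3.82 and 3.26 times.

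FBXL5 encodes the iron-binding subunit of the ubiquitin ligase that degrades IRP2 (chr4:15606004-15683302, minus strand). The Ctrl samples had 8.80 and 9.61 RPKM, and the MYCN KD samples had 13.9 and 12.8 RPKM. All knockdown values lay above the Ctrl values, and the mean rose from 9.21 ± 0.573 to 13.4 ± 0.802 RPKM (SD, n = 2 each), a ratio of 1.45. Its log2 fold change was 0.49 (SE 0.071, adjusted p = 0.0144), between 0.44 and 0.55 over the alternatives, and 1393 tested genes had a larger rise. Of the genes that set the switch, the sensor that removes IRP2 thus rose in mRNA while neither IRP gene passed the test.

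The promoter of FBXL5 is shown because, of the 15 windows available for 8 of the 10 genes, it alone held the E-box CACGTG. MYC proteins with MAX are known to bind this element. No window was available for FTH1 or SLC7A11. RefSeq promoter windows of 300 bases (250 before to 50 after the start, GRCh38.p14) were searched on both strands for CACGTG and for TGACNNNGC, the core of the antioxidant response element. In FBXL5 the motifs overlap, and both are in capitals in the stretch from -147 to -95 of the start.
FBXL5, chr4:15655452-15655504, GRCh38.p14, minus strand: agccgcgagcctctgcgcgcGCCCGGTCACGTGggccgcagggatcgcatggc

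Of 35116 windows of this length, 7.26% held CACGTG and 13.3% held TGACNNNGC. A single window with CACGTG among 15 is near that share of all windows. NCOA4 held TGACNNNGC in 1 of its 2 windows, and no match to either motif was found in the windows of TFRC, FTL, SLC11A2, IREB2, ACO1 or GPX4. The motifs describe letters only, and binding was not measured in the RNA samples.

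SLC7A11 encodes the cystine-specific chain of system xc-, the exchanger that imports cystine for glutathione synthesis (chr4:139085251-139163503, minus strand). It was the lowest of the 10 genes in all samples, at 0.559 and 0.875 RPKM in Ctrl, against 0.517 and 0.335 RPKM after knockdown. These values rest on 184 reads (95% exact Poisson interval 158.4 to 212.6) and 270 reads (238.8 to 304.2) in Ctrl, and on 145 reads (122.4 to 170.6) and 100 reads (81.4 to 121.6) in MYCN KD. The intervals cover counting error only. They treat the counts as reads as sequenced, and hold only as far as normalization left the counts unchanged. Both knockdown values were below both Ctrl values, but the closest ones, 0.559 and 0.517 RPKM, lay nearer to each other than the samples within either condition. The gene was below the filter and was not tested in the main fit. Its log2 difference of RPKM + 1 was -0.26, and without the filter on low values limma gave an adjusted p of 0.230. The difference ranged from -0.40 to -0.13 with 1 sample left out, and voom on the recovered reads, which adds less to low values, gave -0.75 (adjusted p = 0.165). The antisense gene SLC7A11-AS1, which overlaps it, had 1 read in each sample.

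GPX4 encodes the selenoenzyme that reduces lipid hydroperoxides in membranes and is the central brake on ferroptosis (chr19:1103981-1106790, plus strand). The Ctrl samples had 242.4 and 209.7 RPKM and overlapped with the MYCN KD samples at 229.1 and 263.6 RPKM. The log2 fold change of GPX4 was 0.12 (SE 0.11, adjusted p = 0.416), and ranged from 0.02 to 0.27 over the alternatives. Where every sample and the labelled replicate numbers were kept, no adjusted p was under 0.0575. GPX4 ranked 261st by level among the tested genes, whereas its supply partner SLC7A11 was at 0.00230 and 0.00417 of the GPX4 level in Ctrl and, after knockdown, at 0.00226 and 0.00127 of it.

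**Figure D4:**
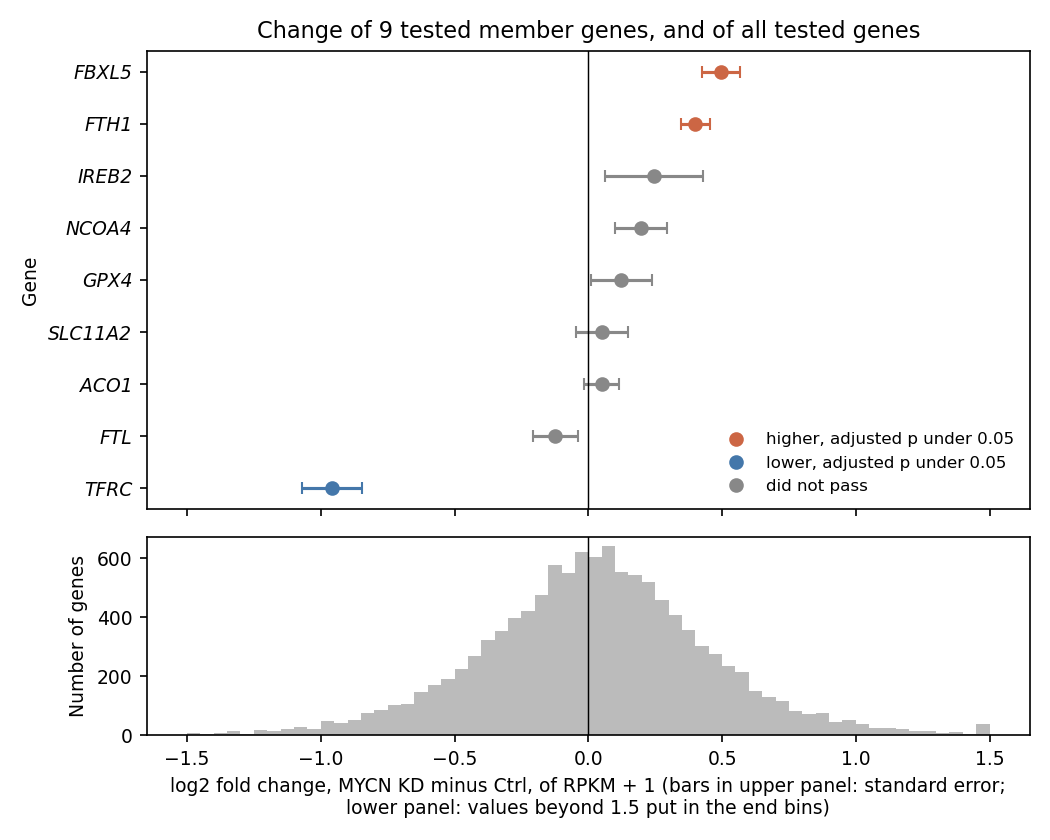
Upper panel: log2 fold change of RPKM + 1 (MYCN KD minus Ctrl) of the 9 tested genes with its standard error. Lower panel: histogram of the log2 fold changes of the 11411 tested genes on the same axis. FBXL5 and FTH1 are called higher, at 0.49 and 0.40, TFRC is called lower, at -0.96, and the other 6 did not pass the threshold.

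Ordered by RPKM, a level per length, the Ctrl samples ran FTL, FTH1, GPX4, TFRC, NCOA4, IREB2, SLC11A2, FBXL5, ACO1 and SLC7A11. Of neighbors in that order, TFRC and NCOA4 overlapped between samples and the others did not. In MYCN KD the order became FTL, FTH1, GPX4, NCOA4, TFRC, IREB2, FBXL5, SLC11A2, ACO1 and SLC7A11, in which TFRC overlapped with IREB2 and FBXL5 with SLC11A2. FTL was 3.44 times FTH1 in Ctrl and 2.39 times FTH1 in MYCN KD. TFRC thus went from the level of NCOA4 in Ctrl to that of IREB2 in MYCN KD.

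To place the 10 genes in their pathways, 9 further lists with 175 genes were counted, of which 174 matched a row and 136 were tested. Of these 136, 24 (17.6%) rose and 48 (35.3%) fell, beside 25.3% and 22.8% of all tested genes, and their median log2 fold change was -0.10. The counts describe the lists, which were not tested as sets, and each count below is to be read against those shares of all tested genes. The lists, too, were chosen with earlier results of these data known.

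The list nearest to SLC7A11 holds cystine uptake, glutathione and thioredoxin genes. Of its 19 genes, all tested, 11 fell and none rose by limma or by voom on the recovered reads, with a median log2 fold change of -0.32. At an unadjusted p under 0.05, 1 gene of the list was higher. When samples were left out in turn, 10 or 11 fell and at most 1 rose, and after rescaling to equal totals 2 rose. SLC3A2, the heavy chain that pairs with the SLC7A11 protein in the exchanger, had 89.6 and 77.9 RPKM in Ctrl, against 42.8 and 49.1 RPKM after knockdown. The groups did not overlap, with a log2 fold change of -0.85 (adjusted p = 0.0116). SLC7A11 was at 0.00623 and 0.0112 of the SLC3A2 level in Ctrl and 0.0121 and 0.00682 of it in MYCN KD, and these ratios overlapped. GSR, which regenerates reduced glutathione, fell by 0.66 on the log2 scale (adjusted p = 0.00364). CBS, which makes the cystathionine used to form cysteine, fell by 0.65 (adjusted p = 0.00529), and GGCT of the glutathione cycle fell by 0.65 (adjusted p = 0.00832). The catalytic subunit of glutamate-cysteine ligase, GCLC, fell from 9.42 to 6.34 RPKM (log2 fold change -0.51, adjusted p = 0.0227). Its modifier subunit GCLM did not pass (-0.04, adjusted p = 0.866), and its sign turned when either replicate 2 was left out. Around GPX4, 3 of the 7 other glutathione peroxidase genes were tested and 2 rose, the secreted GPX3 by a log2 fold change of 0.64 (adjusted p = 0.00991) and GPX7 of the endoplasmic reticulum by 0.34 (adjusted p = 0.00708).

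Selenocysteine, the residue at the active site of GPX4, is inserted by a dedicated machinery, and 12 genes of that list were tested. SECISBP2, which binds the insertion element of selenoprotein mRNAs, fell from 17.7 to 10.8 RPKM (log2 fold change -0.66, adjusted p = 0.00380). SEPHS2, which makes the selenium donor, fell by 0.60 (adjusted p = 0.00374), while the SECISBP2 paralog SECISBP2L rose from 3.004 to 5.88 RPKM (0.78, adjusted p = 0.0337). The selenoprotein SEPW1 rose by 0.46 (adjusted p = 0.00818), and the selenoprotein P receptor LRP8 did not pass (-0.13, adjusted p = 0.0966). Of the alternatives that kept every sample and the labelled replicate numbers, LRP8 passed only under quantile normalization (-0.17, adjusted p = 0.0350). In all, 3 of the 12 rose and 4 fell.

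Of the 32 genes of iron transport, reduction and storage, 12 were tested, of which 2 rose and 5 fell, and 4 were at 0 in every sample. TFR2, the second transferrin receptor, had 2.20 and 2.097 RPKM in Ctrl, against 1.17 and 1.22 RPKM after knockdown, and fell like TFRC (log2 fold change -0.52, adjusted p = 0.00565). STEAP3, the endosomal reductase that prepares iron for SLC11A2, fell by 0.58 (adjusted p = 0.00504), the mitochondrial importer SLC25A37 by 0.56 (adjusted p = 0.00729) and the importer SLC39A14 by 0.47 (adjusted p = 0.0178). MFI2, the melanotransferrin gene, rose from 2.24 to 4.18 RPKM (0.67, adjusted p = 0.00604). The iron exporter SLC40A1 was 0.905 RPKM in Ctrl and 1.45 RPKM in MYCN KD and just missed the threshold (0.36, adjusted p = 0.0532). Its change ranged from 0.27 to 0.45 with 1 sample left out. SLC40A1 held a match to the iron-responsive element in its 5′ UTR, as the ferritin genes do. Of the chaperones that load ferritin with iron, PCBP1 did not pass (-0.17, adjusted p = 0.0927), and PCBP2 fell by 0.22 (adjusted p = 0.0120). Among the alternatives that kept every sample, PCBP2 lost that call under quantile normalization and with the replicate number as a block.

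In heme synthesis and breakdown, 5 of 15 tested genes rose and 1 fell. HMOX1, the oxygenase that frees iron from heme, had 9.04 and 8.63 RPKM in Ctrl, against 17.9 and 18.7 RPKM after knockdown, a log2 fold change of 0.97 (adjusted p = 0.00361). BLVRB, which acts after it, rose by 0.75 (adjusted p = 0.00807). The synthesis gene PPOX rose by 0.385 (adjusted p = 0.0144), and TMEM14C, which moves a heme precursor, rose by 0.34 (adjusted p = 0.00832). Both calls were lost with the replicate number as a block (adjusted p = 0.0714 for PPOX and 0.0532 for TMEM14C). Without MYCN KD replicate 2, 3 genes of the list rose, and without replicate 1 of either condition none fell. In iron-sulfur cluster assembly, which makes the cluster that ACO1 carries, 13 of 28 tested genes fell and 2 rose. The count of falls was 8 without MYCN KD replicate 2, and that of rises was 0 without Ctrl replicate 2 or either MYCN KD sample and 1 without Ctrl replicate 1. The chaperone HSPA9 fell from 193.3 to 121.6 RPKM (-0.66, adjusted p = 0.0129), HSCB by 0.60 (adjusted p = 0.0150) and LYRM4 by 0.56 (adjusted p = 0.00775).

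Among genes that make or act on oxidizable lipids, 4 of 15 tested rose and 3 fell. ACSL4, which loads membranes with the polyunsaturated fatty acids that ferroptosis needs, had 8.69 and 10.7 RPKM in Ctrl, against 5.30 and 4.35 RPKM after knockdown, with no overlap (log2 fold change -0.87, adjusted p = 0.0181). SCD, which makes monounsaturated fatty acids, fell by 0.45 (adjusted p = 0.0113). CYB5R1, an oxidoreductase that feeds lipid peroxidation, rose by 0.56 (adjusted p = 0.00510), and the phospholipase PLA2G6 rose by 0.49 (adjusted p = 0.0381). Of 17 genes that bear on ferroptosis without glutathione, whether they restrain it or consume a sterol that does, 9 fell and 2 rose, and the falls numbered 5 without Ctrl replicate 2 and 4 without MYCN KD replicate 2. AIFM2, the ubiquinone reductase also named FSP1, rose from 13.2 to 18.9 RPKM (0.48, adjusted p = 0.00990), and GCH1, the entry to tetrahydrobiopterin synthesis, rose by 0.68 (adjusted p = 0.0349). DHODH, which reduces ubiquinone in mitochondria, fell by 0.48 (adjusted p = 0.0343), PDSS1 of ubiquinone synthesis fell by 0.66 (adjusted p = 0.00425), and SPR, which completes tetrahydrobiopterin, fell from 9.95 to 6.61 RPKM (adjusted p = 0.00896).

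NRF2 (NFE2L2) and BACH1 are the transcription factors known to raise and to hold down FTH1, FTL, SLC7A11 and HMOX1. Neither mRNA passed the test, with log2 fold changes of -0.17 for NFE2L2 (adjusted p = 0.136) and -0.07 for BACH1 (adjusted p = 0.548), the sign of the latter turning without replicate 2 of either condition. The activity of these proteins was not measured. Of 15 tested regulators and targets 4 rose (26.7%, near the 25.3% of all tested genes), among them NQO1 from 43.9 to 63.3 RPKM (0.52, adjusted p = 0.00604), AKR1C1 by 0.68 (adjusted p = 0.00496) and MAFF by 0.49 (adjusted p = 0.00547). The falls numbered 2, with PIR at -0.54 (adjusted p = 0.00684), and 1 when replicate 1 of either condition was left out.

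**Figure D5:**
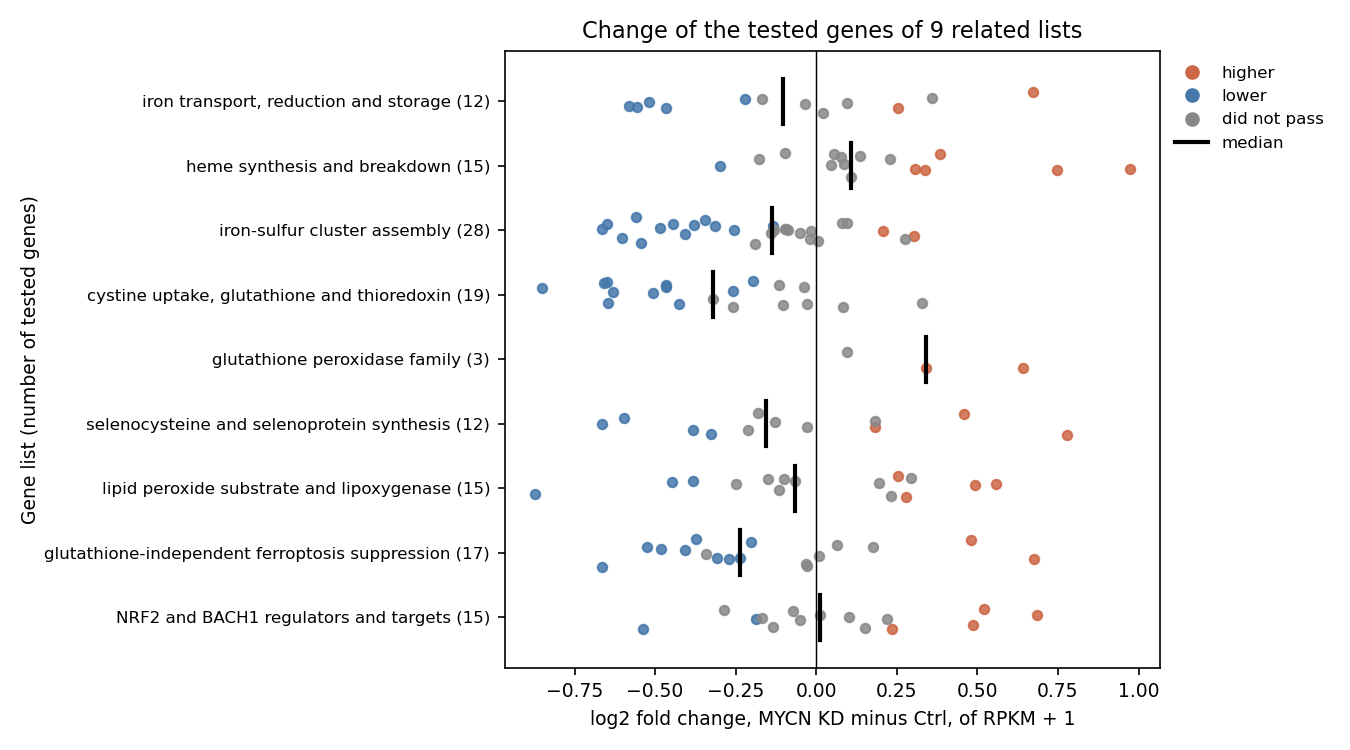
log2 fold change of RPKM + 1 (MYCN KD minus Ctrl) of every tested gene of the 9 lists, with the number tested in parentheses and a bar at the median. The cystine, glutathione and thioredoxin list has its median at -0.32 with 11 genes called lower and none higher, and the heme list has its median at 0.11 with 5 called higher.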

How the data were processed

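RNA-seq of 4 BE(2)C samples (2 Ctrl, 2 MYCN KD, grouped by their titles) was used. Reads were mapped by the authors with HISAT2 (2.1.0 by the submitters' processing notes) to hg19. The authors then counted them on RefSeq genes with featureCounts, used DESeq2 and RUVSeq for normalization, and deposited RPKM from the normalized counts, 1 file per sample. Strandedness and the RUVSeq settings are not given in the sources used here. RUVSeq removes variation between samples, so the spread within a condition may be smaller than before it.

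Of 26364 genes, 19908 were above 0, and 100% of these gave whole reads in all samples (tolerance 0.0003 reads, with the gene length solved for). The totals were set on miRNA genes, of whose values 94.96% to 96.39% were whole (tolerance 0.02 reads). log2(RPKM + 1) of 11411 genes (mean RPKM at or above 1) was fitted with limma 3.58.1 (lmFit, eBayes with trend) in R 4.3.3, without a block, with Benjamini-Hochberg adjustment over all of them and a threshold of 0.05. The fit was tested on simulated data, in which the share of unchanged genes among its calls was above the threshold. The simulated data held far fewer changed genes than were called here, and their samples were drawn independently. That share therefore need not hold for these data. Ratios, motif searches and plots used Python 3.11.15 with pandas 2.3.3, numpy 2.4.6, matplotlib 3.10.9 and scipy 1.17.1. UTRs and positions are from GENCODE 44 on GRCh37, and promoters from RefSeq on GRCh38.p14.

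Named genes are the 10 members, MYCN, up to 4 genes of each list with the largest change past the threshold and no overlap, and 16 genes set by name. The members and lists were chosen with earlier results of these data known. Alternatives were a pseudocount of 0.1, no filter, a mean RPKM of at least 5, rescaling to equal totals, quantile normalization, eBayes without trend, the replicate block, and each sample left out. Limma voom on recovered reads and a crossed block were chosen after seeing the data. Rows with symbols turned into dates (28) were kept, and SEP15 matched no row. Single values of some list genes are not reported here.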

Additional observations from a re-analysis of the deposited data

How the results depend on the processing

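TFRC, FTH1, FBXL5 and MYCN kept their direction and call under every alternative run, with MYCN at -0.38 after quantile normalization. FTL changed sign under quantile normalization (0.105) and ACO1 came to -0.007 there. When single samples were left out, the log2 fold change ranged from -0.035 to 0.138 for SLC11A2, -0.001 to 0.1 for ACO1, 0.075 to 0.414 for IREB2 and 0.109 to 0.286 for NCOA4, and 2 to 4 members were higher and 1 lower. Of all genes, 1868 were higher at a mean RPKM of at least 5 (7859 tested), against 2890. Rescaling to equal totals made 60.7% of calls higher, against 52.7%, and moved the median of all genes to 0.08. The log2 difference of SLC7A11 was -0.63 with a pseudocount of 0.1 and -0.75 by voom (adjusted p = 0.165). GCLM came to 0.01 with rescaling and to between -0.201 and 0.122 with 1 sample left out, and BACH1 to between -0.151 and 0.008. Without a filter on low values SECISBP2L, PLA2G6, GCH1 and DHODH lost their calls, and under quantile normalization PLA2G6 and PCBP2 did while LRP8 gained one. The cause of these changes was not tested.

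Samples with the same replicate number deviated in opposite directions (correlation -0.9845), and the labels name no batch or culture that a number shares, so the numbers were not taken as pairs. With the replicate block, 2077 genes were higher and 1851 lower, 14 list genes were higher (24 without it) and 31 lower (48 without it), and no member's call changed, while PPOX, TMEM14C, GPX7 and PCBP2 lost theirs. With the pairing crossed, chosen after seeing the data, 5910 genes were higher and 5262 lower, 7 members were higher and 2 lower, and 51 list genes were higher and 84 lower. In that fit FTL (-0.123), SLC11A2 (0.052), IREB2 (0.245), ACO1 (0.05), NCOA4 (0.197) and GPX4 (0.124) passed with unchanged log2 fold changes, since crossing leaves a median residual SD of 0.00197, against 0.0765.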
